A study of Homo sapiens with 15 samples.

Results

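The libraries described here are human self-renewing neuromesodermal progenitors (srNMPs) kept in culture to passage 25, set against the same kind of cells at passage 8. They were chosen by their labels, and they make up 4 of the 15 messenger RNA libraries of the series: 1 library of the H1 line and 1 of the HUES9 line at each passage. H1 and HUES9 are established human embryonic stem cell lines, both labelled wild type, and the labels give neural induction as the treatment of all 4 srNMP libraries. The other 11 libraries are neuron progenitors after 7 days under protocols labelled RABC and RASS, dorsal neurons and ventral neurons (1 library per line in each), and, from HUES9 alone, undifferentiated stem cells and skeletal muscle at days 40 and 50. Each line and passage is 1 library, so a passage difference within a line has no replicate, and the labels do not say whether the cultures of passage 25 descend from those sequenced at passage 8. Values are FPKM, in which fragment numbers are divided by transcript length and by the mapped fragments of the library, and a change is the difference in log2(FPKM + 1), passage 25 minus passage 8, within 1 line.

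Neuromesodermal progenitors lie at the caudal end of the elongating embryo and feed both the spinal cord and the paraxial mesoderm. They are known for holding the mesodermal factor TBXT and the neural factor SOX2 together, under WNT and FGF signals, and for the caudal factors CDX2 and CDX4, which act upstream of trunk HOX genes. As such cells become spinal cord progenitors they lose TBXT and CDX genes and gain PAX6, after which NOTCH signalling paces the formation of neurons. Passage comparisons ask whether a culture keeps this state over time. In these bulk libraries, fewer cells of a type and less RNA per cell cannot be told apart.

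The 4 libraries were close in depth, with relative depths of 0.975 to 1.03 judged from the smallest steps of their values, and 10835 to 11354 genes reached 1 FPKM. Spearman's rho over genes was 0.977 between the passages of H1 and 0.950 between those of HUES9, and it was lowest, 0.932, between the 2 lines at passage 8. At passage 25 the lines stood at 0.962. Across both line and passage, rho was 0.959 between H1 at passage 25 and HUES9 at passage 8. It was 0.958 between H1 at passage 8 and HUES9 at passage 25. Both values were above the 0.950 between the passages of HUES9. Transcript length moved with both comparisons in opposite directions: among genes with a mean of at least 5 FPKM, Spearman's rho of the change with length was -0.49 in H1 and 0.54 in HUES9. When genes were cut by length into 5 near-equal bins, the shortest bin had a median change of 0.24 in H1 and -0.45 in HUES9, and the longest -0.19 and 0.48. List medians after removal of this trend are given beside those of the main lists below, and the part of length in them beyond that correction was not tested. Summed FPKM differed too, so that scaling to equal totals moved the median change of all genes in HUES9 from 0.05 to 0.22. Of 75 genes with a line difference in the same direction in the RABC, dorsal and ventral groups, 70 kept it at passage 8 and 67 at passage 25, but 1 did in the RASS group, so the RASS libraries go against their line labels.

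**Figure D1:**
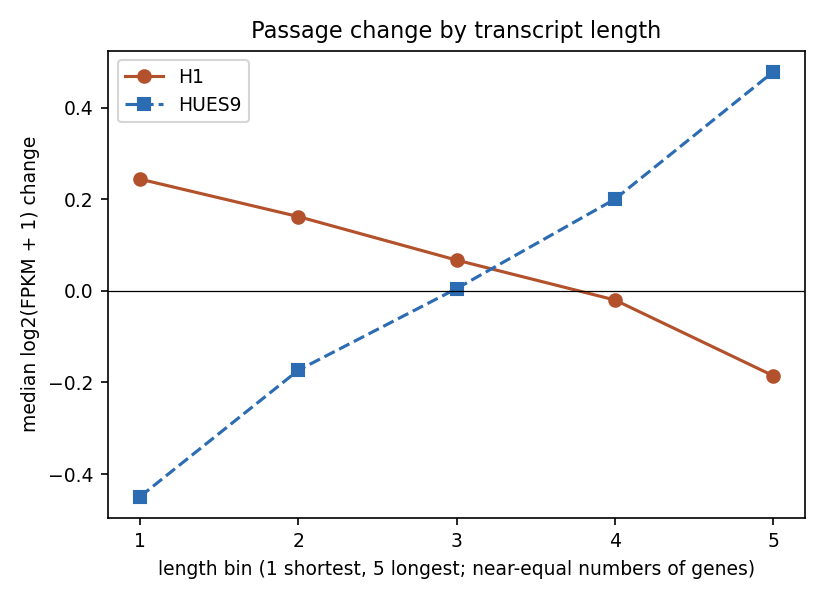
Median change in log2(FPKM + 1), passage 25 minus passage 8, for 5 near-equal bins of genes ordered by transcript length (x axis, shortest to longest), with H1 as circles and HUES9 as squares. The H1 medians run from 0.24 down to -0.19 and the HUES9 medians from -0.45 up to 0.48.

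Among the defining markers, CDX2, TBXT and HOXC9 differed more between the lines at passage 8 than between the passages of HUES9. CDX2, the caudal homeobox factor, was at 0.00615 FPKM in H1 at passage 8, 11.5 in H1 at passage 25, 39.0 in HUES9 at passage 8 and 21.8 in HUES9 at passage 25. The H1 library at passage 8 thus nearly lacked CDX2 and lay within the range of the 11 non-srNMP libraries (0 to 0.224), while the other 3 lay far above it. TBXT was at 2.11, 1.87, 13.4 and 7.39 FPKM in the same order, low in H1 and higher in HUES9 at both passages. HOXC9, a trunk HOX gene, was at 0.0565, 9.84, 13.2 and 4.80 FPKM, with the H1 library at passage 8 again apart from the rest. PAX6, a factor of neural progenitors, was at 0.178, 0.161, 0.324 and 24.5 FPKM, so only the HUES9 library at passage 25 held it, at a level inside the 13.0 to 69.0 FPKM of the RABC and RASS progenitors. RNF43, a WNT-induced ligase that limits WNT receptors, was at 0.0742, 1.27, 0.407 and 2.22 FPKM, and both lines had more of it at passage 25. Its passage difference in limma was 1.14 ± 0.19 (SE, n = 2 libraries a passage), with an adjusted p of 1. SOX2 was high in all 4 libraries, at 213, 165, 161 and 147 FPKM.

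**Figure D2:**
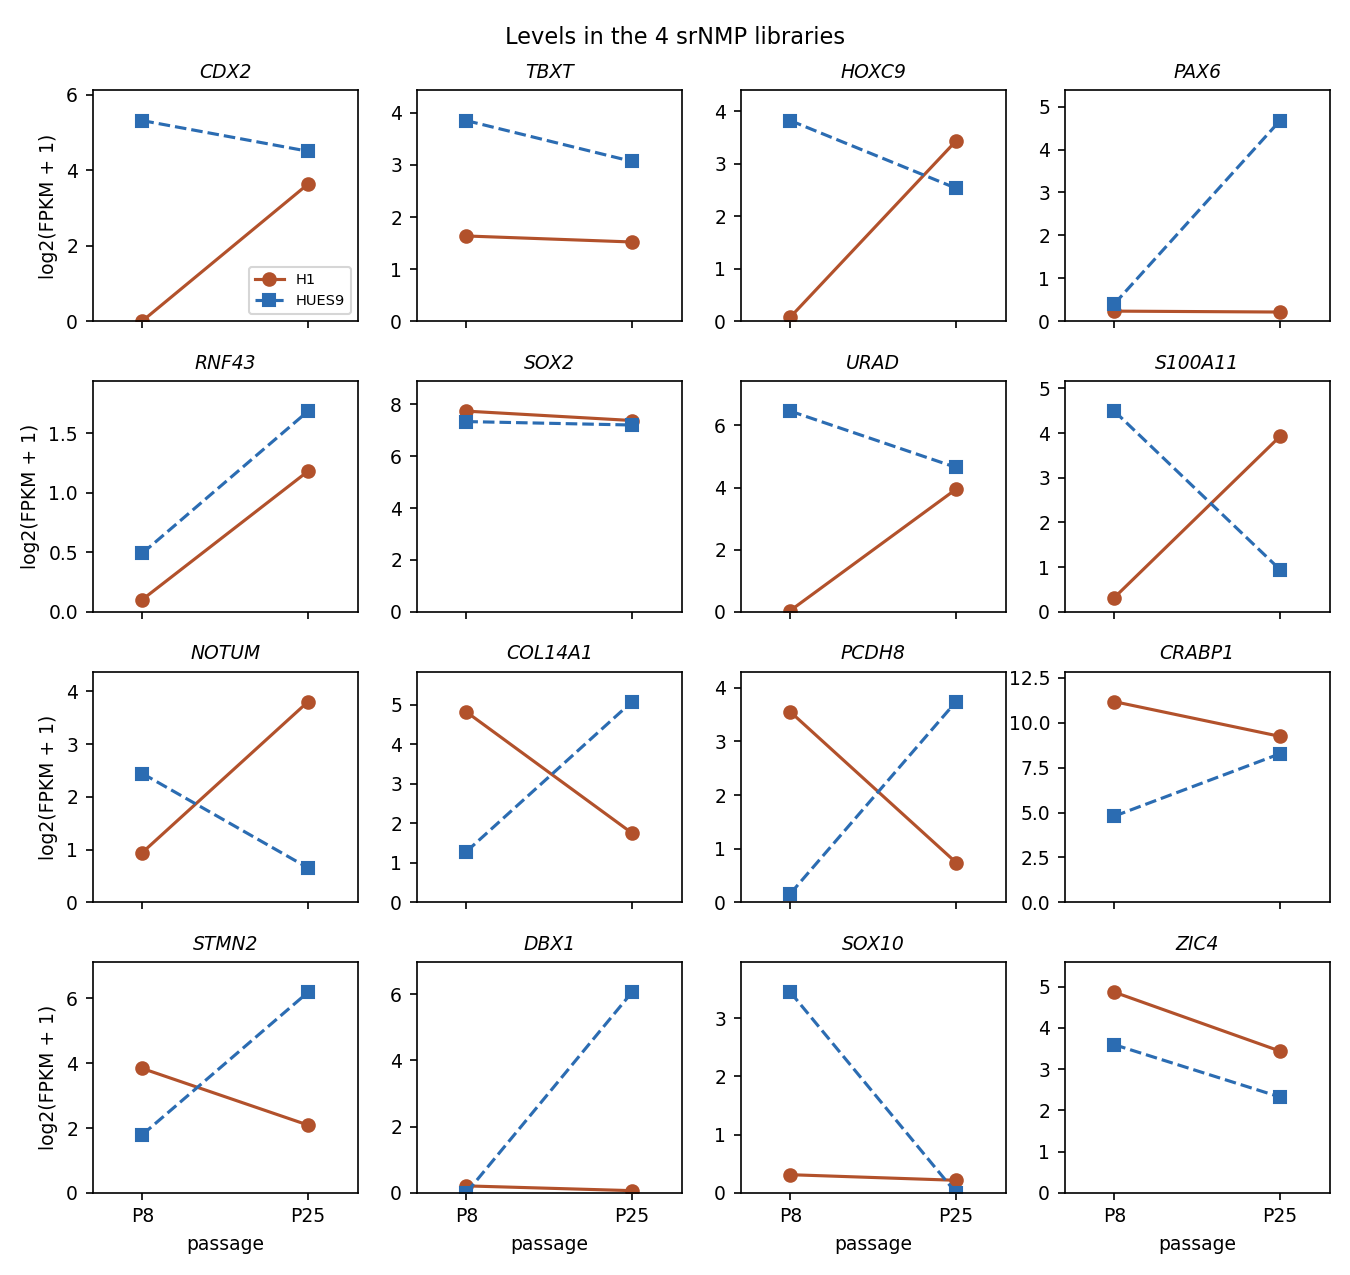
Levels of 16 named genes as log2(FPKM + 1) at passage 8 (P8) and passage 25 (P25), 1 point per library, H1 as circles with solid lines and HUES9 as squares with dashed lines. The lines of CDX2, HOXC9, URAD and S100A11 go up in H1 and down in HUES9, those of COL14A1, PCDH8, CRABP1 and STMN2 go the other way, and SOX2 lies between 147 and 213 FPKM.

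The promoters of CDX2, of its neighbour on chromosome 13, URAD, and of PCDH8 are printed because the first pair shared a pattern (higher in H1, lower in HUES9) and PCDH8, a protocadherin of segmenting mesoderm and neural tissue, had the opposite one. Each is the 250 bases before the start in RefSeq on GRCh38.p14, all on the minus strand, at chr13:27969316-27969565, chr13:27978665-27978914 and chr13:52848641-52848890. Capitals mark a match on the reverse strand to the CDX motif TTTATNG (in CDX2 and PCDH8) or to the TCF/LEF motif CTTTGAT (in URAD), both strands having been searched.
CDX2: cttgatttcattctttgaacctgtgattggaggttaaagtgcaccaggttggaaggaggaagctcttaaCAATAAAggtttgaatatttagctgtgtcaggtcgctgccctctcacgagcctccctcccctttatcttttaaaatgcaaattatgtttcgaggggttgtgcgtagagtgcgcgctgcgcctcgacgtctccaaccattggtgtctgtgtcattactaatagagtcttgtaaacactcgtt
URAD: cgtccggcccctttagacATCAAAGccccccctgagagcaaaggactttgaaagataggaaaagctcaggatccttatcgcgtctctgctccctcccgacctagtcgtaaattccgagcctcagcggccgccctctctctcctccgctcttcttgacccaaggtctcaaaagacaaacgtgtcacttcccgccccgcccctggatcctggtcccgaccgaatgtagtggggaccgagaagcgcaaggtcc
PCDH8: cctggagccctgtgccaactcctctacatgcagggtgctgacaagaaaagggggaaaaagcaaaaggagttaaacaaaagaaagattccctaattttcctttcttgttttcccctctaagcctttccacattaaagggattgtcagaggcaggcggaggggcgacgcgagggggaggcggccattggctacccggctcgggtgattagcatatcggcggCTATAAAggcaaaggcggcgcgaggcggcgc
The match in PCDH8 overlaps letters of a TATA box. Of 27305 promoters of this length, 9.29% held the CDX motif and 2.28% the TCF/LEF motif, so these matches describe the letters and nothing about binding. The 3 promoters held 10, 17 and 14 CG dinucleotides, against a median of 11.

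No gene passed a test of a passage difference shared by the lines. In limma, with cell line as a block and the spread taken from all groups, 0 of 14129 genes (0%) were called at an adjusted p under 0.05, 255 had an unadjusted p under 0.05, and the smallest adjusted p was 1. Among genes with at least 5 FPKM in 1 srNMP library, STMN3, a neuronal tubulin-binding protein, was one of the 10 with the smallest unadjusted p: it was at 33.3 and 58.8 FPKM in H1 and at 32.6 and 57.1 in HUES9, a difference of 0.79 ± 0.15 (SE, n = 2). Its levels at passage 25 were above both passage 8 levels, and it was not called (adjusted p of 1 in limma). Leaving out the H1 library of passage 25, that of passage 8, the HUES9 library of passage 25 or that of passage 8 gave 1, 4, 3 and 5 called genes, where the lone library of a passage is assumed to vary like the other groups.

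Within each line many genes differed by at least 2-fold on the log2(FPKM + 1) scale, and the 2 lines mostly differed in opposite directions. In H1, 203 of 14129 genes (1.44%) were higher at passage 25 by that fold and 160 (1.13%) were lower, 363 in all (2.57%). In HUES9, 959 (6.79%) were higher and 299 (2.12%) were lower, 1258 in all (8.9%). Both lines were past the fold for 117 genes: 11 were higher in both (0.0779%), 8 lower in both (0.0566%), 41 higher in H1 and lower in HUES9 (0.29%), and 57 lower in H1 and higher in HUES9 (0.403%). Thus 98 of the 117 (83.8%) went opposite ways. Across genes, which are not independent replicates, Pearson's r of the changes in H1 and HUES9 was -0.38. After the length correction r was -0.29, and 78 of 97 genes past the fold in both lines (80.4%) went opposite ways. The median transcript length was 1856.5 bases for the genes higher in H1 and lower in HUES9, 4880 for the reverse class and 3712 for all genes tested. With 1 library per line and passage, these counts carry no test.

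**Figure D3:**
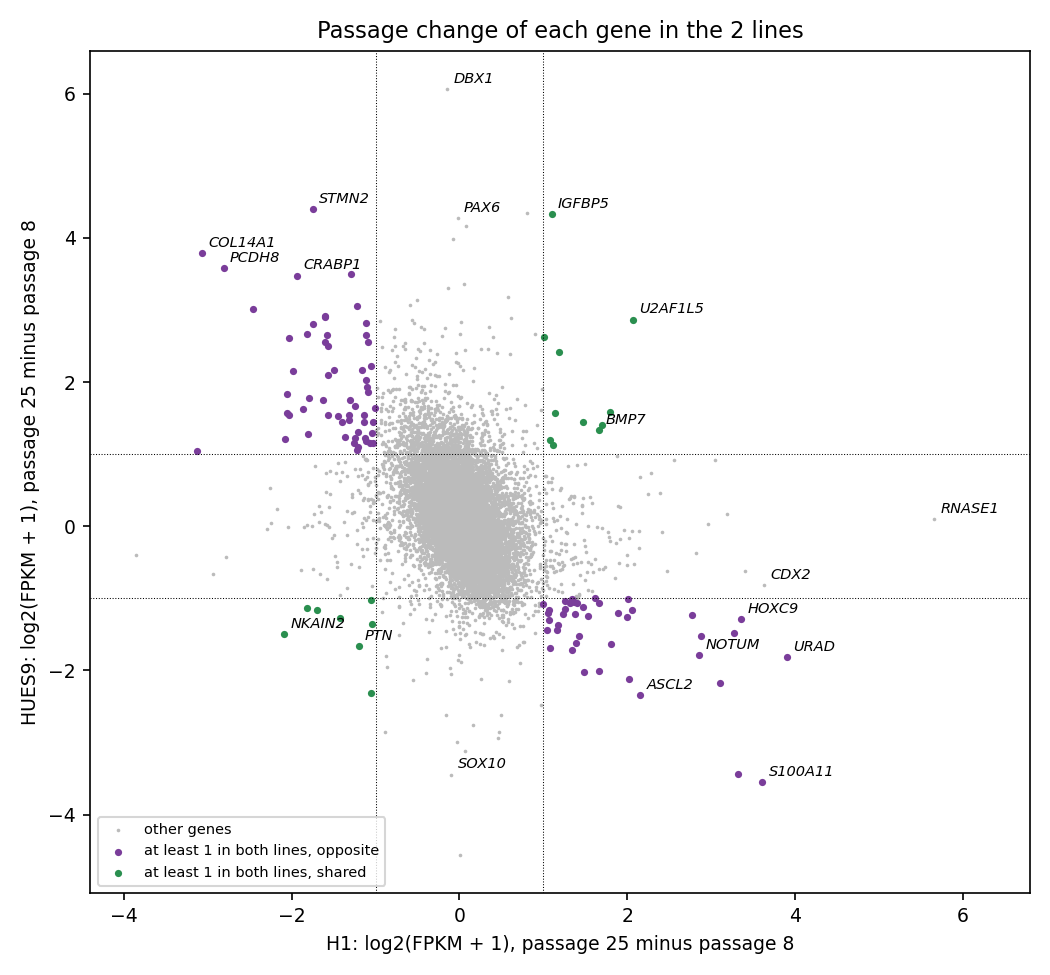
Change in log2(FPKM + 1) from passage 8 to passage 25 of each of 14129 genes, H1 on the x axis and HUES9 on the y axis, with dotted lines at a change of 1 in either direction. Of the 117 genes past the dotted lines in both lines, 98 (purple) lie in the opposite corners and 19 (green) in the shared ones.

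The genes higher at passage 25 in both lines included secreted and signalling proteins. BMP7, a bone morphogenetic protein, was at 0.967 and 5.25 FPKM in H1 and at 5.15 and 14.5 in HUES9. ACKR3, a scavenging receptor for the chemokine CXCL12, was at 0.281 and 3.45 FPKM in H1 and at 4.68 and 16.0 in HUES9. Both were higher within each line, but the H1 level at passage 25 did not exceed the HUES9 level at passage 8 for ACKR3. EFEMP2, an elastic fibre protein also called fibulin-4, was at 1.97 and 7.23 FPKM in H1 and at 3.11 and 10.2 in HUES9, and here both passage 25 libraries lay above both passage 8 libraries. IGFBP5, which binds insulin-like growth factors, was at 12.2 and 27.3 FPKM in H1 and at 2.52 and 69.8 in HUES9. The others with at least 5 FPKM in 1 library were RARRES2 (the chemoattractant chemerin), with changes of 1.19 and 2.41 in H1 and HUES9, FREM1 (a basement membrane protein), with 1.13 and 1.56, PPP1R17, with 1.01 and 2.63, and U2AF1L5, with 2.07 and 2.87. U2AF1L5 is a near-identical copy of the splicing factor gene U2AF1, so its values are uncertain.

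Among the genes lower at passage 25 in both lines were ZIC4, TFAP2B and PTN. ZIC4, a zinc finger factor of the dorsal neural tube, was at 28.1 and 9.81 FPKM in H1 and at 11.05 and 4.002 in HUES9. TFAP2B, a factor of neural crest and dorsal neurons, was at 16.7 and 4.46 FPKM in H1 and at 5.03 and 1.70 in HUES9. For both genes each passage 25 library was below both passage 8 libraries. PTN, the heparin-binding growth factor pleiotrophin, was at 396 and 172 FPKM in H1 and at 117 and 36.2 in HUES9. Its level was lower at passage 25 within each line, but H1 at passage 25 stayed above HUES9 at passage 8. NKAIN2, a partner of the sodium pump, had changes of -2.09 and -1.49, and INPP5F, an inositol phosphatase, of -1.05 and -1.02. The dorsal progenitor list as a whole had 3 of 16 tested genes higher and 2 lower in H1, and 0 higher and 5 lower in HUES9. Its median was -0.07 in H1 and -0.51 in HUES9, against 0.01 and 0.05 for all genes tested, and -0.24 and -0.37 after the length correction. The lower count in HUES9 was 2 at equal totals and 7 with a GC correction. In HUES9 the 5 were PAX3, ZIC1, ZIC2, ZIC4 and GBX2, with ZIC1 at 81.4 and 34.4 FPKM and ZIC2 at 83.6 and 33.3.

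The class higher in H1 and lower in HUES9 held caudal, WNT-pathway and cytoskeletal genes. S100A11, a calcium-binding protein, was at 0.247 and 14.2 FPKM in H1 and at 21.5 and 0.924 in HUES9. S100A10, its relative that partners annexin A2, was listed at 0 and at 8.99 FPKM in H1, and was at 19.2 and 0.861 in HUES9. The high libraries of both genes were therefore H1 at passage 25 and HUES9 at passage 8. After the length correction the changes of S100A11 were 3.36 and -2.99. DES, the muscle intermediate filament desmin, was at 0.425 and 11.3 FPKM in H1 and at 10.8 and 1.63 in HUES9. NOTUM, an enzyme that inactivates WNT ligands and is induced by them, was at 0.925 and 13.0 FPKM in H1 and at 4.44 and 0.572 in HUES9. ASCL2, a WNT-induced helix-loop-helix factor, was at 0.318 and 4.88 FPKM in H1 and at 17.1 and 2.59 in HUES9. URAD, an enzyme of urate breakdown, was at 0.0287 and 14.4 FPKM in H1 and at 87.1 and 24.1 in HUES9, the same order of libraries as its neighbour CDX2. NPY, a neuropeptide, was at 1.40 and 6.59 FPKM in H1 and at 271 and 66.8 in HUES9, where both libraries stayed above H1. The remaining named genes were CD52, HOXD8, HOXC8, VAMP8, L1TD1, PMP22, OAT and CBSL, the last a near-identical copy of CBS and so uncertain.

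The caudal program followed the same pattern in part of its genes. For comparison with list counts, 1.44% of all genes tested were past the fold upward and 1.13% downward in H1. In HUES9 these shares were 6.79% and 2.12%. In the neuromesodermal list, 5 of 17 tested genes were past the fold upward and 0 downward in H1. In HUES9 0 were upward and 5 downward, and 2 genes were past it in both lines. The medians were 0.18 in H1 and -0.61 in HUES9, or 0.21 and -0.70 after the length correction. The lower count in HUES9 was 3 at equal totals and 8 with a GC correction. CDX4 was listed at 0 in H1 at passage 8 and was at 6.06, 37.7 and 28.8 FPKM in H1 at passage 25 and in HUES9 at passages 8 and 25. NKX1-2, a factor of the caudal epiblast, was listed at 0 and at 2.69 FPKM in H1 and was at 11.2 and 4.28 in HUES9. SP5, a WNT-induced repressor, was at 25.1 and 52.9 FPKM in H1 and at 45.2 and 16.0 in HUES9. FGF8 and FGF17, ligands of the caudal growth zone, were present in every library, FGF8 at 71.4, 80.8, 171 and 86.3 FPKM and FGF17 at 78.6, 140, 243 and 100.3. WNT3A was listed at 0 in all 4 libraries, and TBX6, which marks entry into paraxial mesoderm, was at 0.283 to 0.822 FPKM. The paraxial mesoderm list had 1 of 14 genes higher in each line and none lower, in HUES9 a share near the 6.79% of all genes.

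HOX genes of paralog groups 6 to 9, the trunk set, were the list with the most opposite members for its size. Of 12 tested, 5 were past the fold upward in H1, 7 downward in HUES9, and 5 did both: HOXA9, HOXC6, HOXC8, HOXC9 and HOXD8. The medians were 0.65 in H1 and -1.19 in HUES9, and 0.47 and -0.99 after the length correction, and at equal totals 4 were lower in HUES9. HOXA9 was at 18.5 and 76.4 FPKM in H1 and at 72.9 and 30.0 in HUES9, while HOXB9 stayed high throughout, at 389, 375, 270 and 203 FPKM. In H1 at passage 8 HOXB6, HOXB7, HOXB8 and HOXB9 were at 32.6 to 389 FPKM while HOXC8, HOXC9 and HOXD8 were below 0.22 FPKM. Groups 1 to 5, the hindbrain and cervical set, had 2 of 15 genes higher in H1 and 3 lower in HUES9, HOXA5 and HOXC5 being both, with medians of 0.19 and -0.16. At equal totals 0 of the 15 were lower in HUES9, so neither gene was then opposite, and the HUES9 median was 0.11. Of 10 tested genes of groups 10 to 13, the lumbar and sacral set, 0 were past the fold in either line. Most were near 0: of 12 in the list, 5 were under 0.1 FPKM in all 4 libraries and 1 reached 5 FPKM. Their summed FPKM was 0.117 and 1.51 in H1 and 18.3 and 12.6 in HUES9, so most could hardly pass the fold.

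The reverse class, lower in H1 and higher in HUES9, held genes of neuron formation. CRABP1, a retinoic acid binding protein, was at 2317 and 605 FPKM in H1 and at 26.9 and 309 in HUES9, so the lines started far apart and ended closer. STMN2, a tubulin-binding protein of growing neurons, was at 13.3 and 3.26 FPKM in H1 and at 2.47 and 72.0 in HUES9. COL14A1, a fibril-associated collagen, was at 27.1 and 2.36 FPKM in H1 and at 1.43 and 32.7 in HUES9. PCDH8 was at 10.7 and 0.673 FPKM in H1 and at 0.119 and 12.4 in HUES9. In each of these 3 genes H1 at passage 8 and HUES9 at passage 25 were the high libraries. ONECUT1, a factor of newborn neurons, was at 29.7 and 9.10 FPKM in H1 and at 0.387 and 9.44 in HUES9, and NHLH1, of early neuroblasts, was at 9.46 and 1.57 in H1 and at 0.784 and 9.89 in HUES9. DCX, the microtubule protein doublecortin, was at 3.28 and 0.414 FPKM in H1 and at 0.240 and 8.26 in HUES9. The other named members were POU3F4, C1QTNF3, DCC (a netrin receptor), HES5, HES4, ONECUT2, NEUROD4 and ZFHX4.

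The neural lists lay on the same side as these genes. Their counts stand against 1.13% of all genes lower in H1 and 6.79% higher in HUES9. Of 25 pan-neuronal genes, 8 were past the fold downward in H1 and 0 upward, 15 were upward in HUES9 and 0 downward, and 6 did both. The medians were -0.42 and 1.28, or -0.43 and 1.01 after the length correction. The filament genes NEFL and NEFM did not follow, at 50.9 to 64.3 and 86.0 to 115 FPKM over the 4 libraries. Of 22 neural progenitor genes, 7 were lower in H1 and 0 higher, and 11 were higher and 2 lower in HUES9, with medians of -0.62 and 1.00, or -0.73 and 0.82 after the length correction. SOX3, a relative of SOX2, was at 43.1 and 24.4 FPKM in H1 and at 27.1 and 93.2 in HUES9, and FABP7, a fatty acid binding protein of radial glia, was at 47.0 and 29.05 in H1 and at 80.1 and 240 in HUES9. The lower genes in HUES9 were PAX3 and PTN. Of 18 NOTCH pathway genes, 3 were lower and 1 higher in H1, and 8 were higher and 0 lower in HUES9, with medians of -0.10 and 0.94, or -0.13 and 0.97 after the length correction. By role, the ligand DLL1 was at 24.4 and 14.95 FPKM in H1 and at 14.8 and 39.5 in HUES9, the receptor NOTCH1 at 12.9, 12.2, 6.92 and 29.9, and the target HES5 at 11.5 and 2.52 in H1 and at 7.22 and 51.3 in HUES9. HES1, another target, did not follow in HUES9, with 8.77 and 4.82 FPKM.

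**Figure D4:**
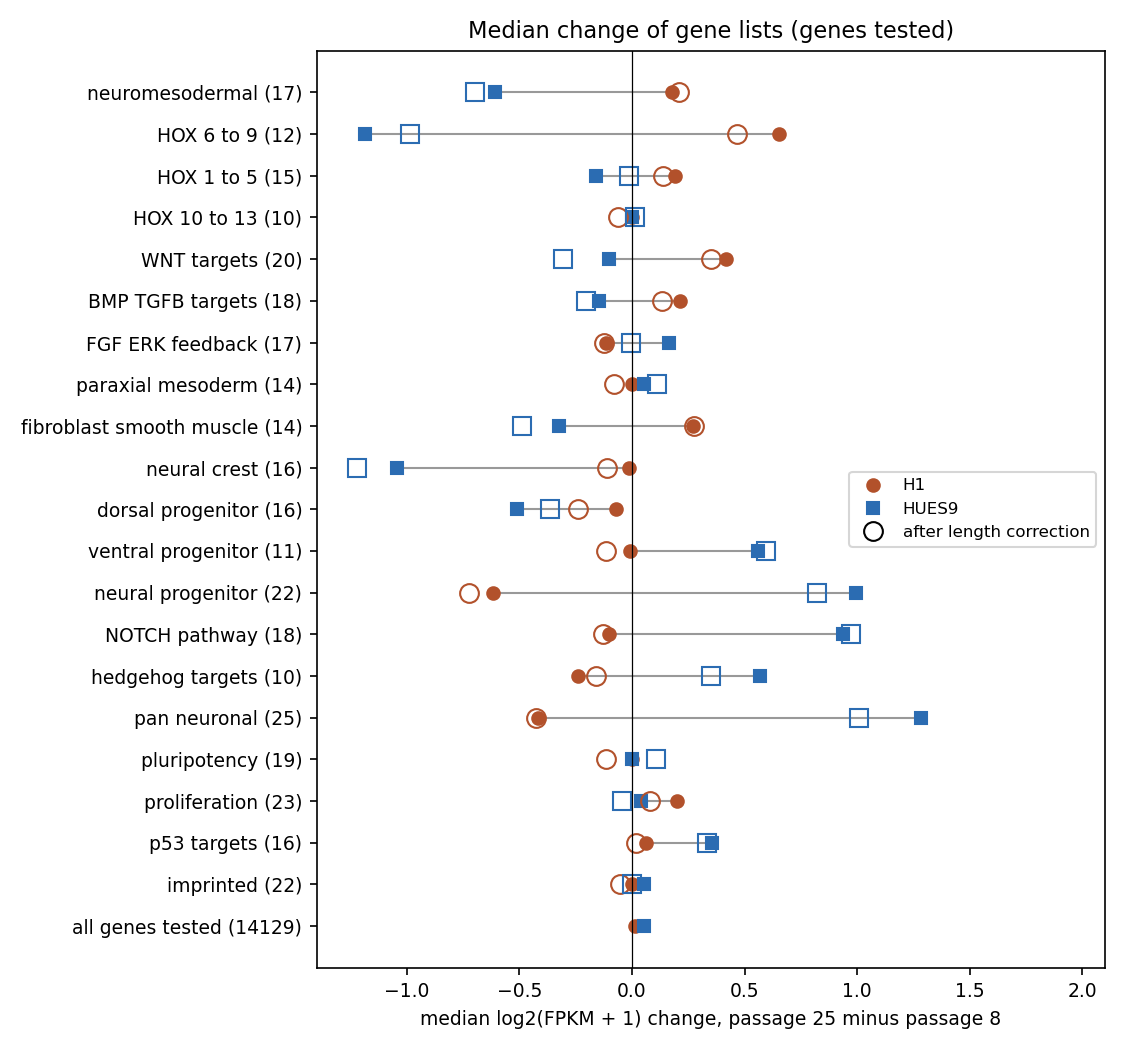
Median change in log2(FPKM + 1), passage 25 minus passage 8, of each gene list in H1 (circles) and HUES9 (squares), with the number of genes tested in parentheses and open symbols after the length correction. The HOX 6 to 9 list lies at 0.65 and -1.19, the pan neuronal list at -0.42 and 1.28, and all genes tested at 0.01 and 0.05.

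A test of the difference between the lines' changes called 9 genes, but the calls did not hold when the libraries that gave the spread were varied. With each srNMP library given its own coefficient and the spread taken from the RABC, RASS, dorsal and ventral pairs, limma called 9 of 14129 genes (0.0637%), 8 with the higher change in H1 and 1 with the lower, and 2214 had an unadjusted p under 0.05. The difference (H1 minus HUES9) of CDX2 was 4.44 ± 0.29 (SE, adjusted p = 0.0474), of URAD 5.72 ± 0.28 (0.0336), of ASCL2 4.50 ± 0.18 (0.0213) and of RNASE1 5.56 ± 0.18 (0.0146). L1TD1, an RNA-binding protein of pluripotent cells, differed by 4.75 (adjusted p = 0.0468), PRSS56, a serine protease, by 4.56 (0.0382), CD36, a fatty acid receptor, by 3.41 (0.0336) and TARP, a transcript of the T cell receptor gamma locus, by 3.22 (0.0474). CDX2, RNASE1 and URAD did not exceed 0.264 FPKM in any library of the groups that gave the spread, and ASCL2 did not exceed 0.637, so their standard errors reflect values near 0. By contrast HOXC9, with 14.0 to 67.2 FPKM in those groups, differed by 4.65 ± 0.85 with an adjusted p of 0.198, and STMN2 by -6.14 ± 0.54 with an adjusted p of 0.0677. Without any 1 of the 8 libraries that gave the spread 0 genes were called, leaving both RASS libraries out also gave 0, and swapping the line labels of that pair gave 30. Each omission left 2 residual degrees of freedom in place of 3, so part of the loss of calls may be a loss of power. Since each group had its own mean, leaving out 1 library also took its partner out of the spread. Omitting either library of a pair was thus nearly the same check, as was omitting both RASS libraries. The alternatives counted next include these omissions, so their counts mix a loss of power with dependence on scaling and filter. Over 19 alternatives CDX2 stayed under the threshold in 3 (adjusted p 0.0203 to 0.402), RNASE1 in 9 and ASCL2 in 8.

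Some genes differed in H1 alone, with a change under 0.25 in HUES9. RNASE1, a secreted ribonuclease, was listed at 0 and at 49.5 FPKM in H1 and was at 4.32 and 4.68 in HUES9. EGR1, an immediate early factor, was at 0.416 and 11.97 FPKM in H1 and at 22.4 and 25.3 in HUES9. SPON1, a floor plate and matrix protein, was at 0.396 and 9.88 FPKM in H1 and at 39.0 and 39.9 in HUES9. For EGR1 and SPON1 the H1 library at passage 8 stood apart below the other 3. STRA6, the retinol transporter, had a change of 2.42 in H1 and -0.08 in HUES9, and TGFB2 of 2.05 and -0.06. Lower in H1 alone were NRP1, a semaphorin receptor, at 27.0 and 4.89 FPKM in H1 and 6.39 and 6.65 in HUES9, and ENPP2, the enzyme autotaxin, at 51.3 and 10.5 in H1 and 32.0 and 38.0 in HUES9. For NRP1 the high library was H1 at passage 8.

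In HUES9, DBX1, NTN1, NKX6-1 and PRAME were high at passage 25, and SOX10, S100B and PRSS56 were high at passage 8. DBX1, a factor of the p0 progenitor domain, was at 0.157 and 0.0467 FPKM in H1, was listed at 0 in HUES9 at passage 8 and was at 66.0 in HUES9 at passage 25. NTN1, the guidance cue netrin-1, was at 0.315, 0.192, 0.429 and 13.1 FPKM in the same order. NKX6-1, a ventral progenitor factor, was at 0.112, 0.944, 0.135 and 22.0 FPKM, below the 69.3 and 159 FPKM of the RASS libraries, with changes of 0.81 in H1 and 4.34 in HUES9. HUES9 at passage 25 was the high library for all 3 genes. Of 11 tested ventral progenitor genes, 5 were past the fold upward in HUES9 (NKX6-1, DBX1, OLIG1, OLIG2 and FOXN4) and 0 in H1, with medians of 0.56 and -0.01, or 0.59 and -0.12 after the length correction. SHH, the ventral inducer, was listed at 0 in all 4 libraries. PRAME, a cancer-testis antigen, was at 1.22 and 39.0 FPKM in HUES9 and at most 0.0514 in H1.

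In the other direction, SOX10, a neural crest and glial factor, was at 9.89 FPKM in HUES9 at passage 8 and listed at 0 at passage 25, and was at 0.241 and 0.161 in H1. S100B was at 7.10 and 0.0226 FPKM in HUES9 and at 0.413 and 0.386 in H1, and PRSS56 was at 22.5 FPKM and listed at 0 in HUES9 and at 0.0621 and 0.0649 in H1. HUES9 at passage 8 was the only srNMP library above 1 FPKM for these genes. Of 16 tested neural crest genes, 8 were lower and 1 higher in HUES9, and 3 were lower and 3 higher in H1, with medians of -1.05 and -0.01, or -1.22 and -0.11 after the length correction. FOXD3 was at 2.49 and 0.248 FPKM in HUES9. In H1, TFAP2A was at 7.83 and 0.155 FPKM. The part of other cell types in these results was not tested.

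Signalling lists other than NOTCH were less even. Their counts stand against 1.44% of all genes higher and 1.13% lower in H1, and 6.79% and 2.12% in HUES9. Of 20 WNT target genes, 4 were higher and 0 lower in H1, and 5 were higher and 4 lower in HUES9, with medians of 0.42 and -0.10, or 0.35 and -0.30 after the length correction. The balance in HUES9 depended on the scaling: 5 were higher and 3 lower at equal totals (median 0.11), 1 and 4 with quantile normalization (-0.26), 2 and 6 with a GC correction (-0.26) and 3 and 5 with the length correction. In H1 2 were higher at equal totals. AXIN2, a general WNT target, was at 24.9, 33.9, 22.9 and 21.1 FPKM, a narrow range beside NOTUM and SP5. LEF1, a factor of WNT response, was at 32.8 and 47.6 FPKM in H1 and at 54.7 and 26.3 in HUES9. Of 18 BMP and TGFB genes, 3 were higher and 1 lower in H1 and 3 higher and 2 lower in HUES9, where 0 were lower at equal totals or after the length correction. Among them, MSX1, a BMP-induced homeobox gene, was at 0.916 and 19.3 FPKM in H1 and at 17.4 and 10.99 in HUES9, and ID3 was at 40.9 and 105 in H1 and at 171 and 84.6 in HUES9, so H1 at passage 8 was the lowest library for both. Of 10 hedgehog genes, 0 were past the fold in H1 and 3 were higher in HUES9, with PTCH1, the receptor and target, at 9.03 and 30.0 FPKM in HUES9 and at 11.6 and 10.7 in H1. FGF feedback genes had 2 of 17 higher in H1 and 1 in HUES9, the latter near the 6.79% of all genes, and the feedback phosphatase gene DUSP6 was at 34.8, 62.9, 98.1 and 72.5 FPKM. The retinoic acid list was balanced in its counts: of 16 genes, 2 were higher and 2 lower in each line. Its medians were 0.01 in H1 and 0.05 in HUES9. The 2 genes lower in H1 were, however, the same 2 that were higher in HUES9. Summed FPKM of the list was 2641 and 1062 in H1 and 488 and 533 in HUES9. After the length correction 1 was higher and 1 lower in HUES9. Within this list, MEIS1 was at 14.5 and 0.769 FPKM in H1 and at 4.33 and 9.98 in HUES9, opposite to the HOXC genes.

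Contractile and mesenchymal genes were among those higher in H1. Of 14 tested fibroblast and smooth muscle genes, 4 were higher and 0 lower in H1, and 0 were higher and 4 lower in HUES9, but only 1 gene was both. The medians were 0.27 and -0.33, or 0.28 and -0.49 after the length correction, and 4 of the 14 reached 5 FPKM in an srNMP library. ACTA2, smooth muscle actin, was at 8.51 and 21.7 FPKM in H1 and at 40.4 and 17.6 in HUES9. TAGLN, a smooth muscle actin-binding protein, was at 17.1 and 20.6 in H1 and 19.6 and 3.77 in HUES9, past the fold in HUES9 alone. The defining fibroblast genes DCN, LUM and POSTN were below 1 FPKM in all 4 libraries. The keratin KRT8 was at 32.0 and 67.7 FPKM in H1 and at 41.3 and 17.3 in HUES9, and its partner KRT18 at 26.6 and 69.7 in H1 and at 65.0 and 36.7 in HUES9, while CDH1, KRT5 and KRT14 were at or near 0.

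Few members of the lists for pluripotency, cell division and the p53 response were past the fold. Over all genes tested, 1.44% were higher and 1.13% lower in H1, and 6.79% and 2.12% in HUES9. In HUES9 the cell division and p53 lists each had 1 higher gene, near the share of all genes. POU5F1 and NANOG, which define embryonic stem cells, were at 0.0105 to 0.314 and at 0 to 0.0643 FPKM. Of 19 pluripotency genes, 1 was higher (L1TD1) and 1 lower (DPPA4) in H1, and 1 was lower in HUES9 (L1TD1). In that list 7 genes were under 0.1 FPKM in all 4 libraries and 6 reached 5 FPKM, so many could hardly pass the fold. LIN28A, which blocks let-7 microRNAs in early progenitors, was at 261, 271, 337 and 235 FPKM, and L1TD1 was at 0.0282 and 8.92 in H1 and at 23.9 and 7.95 in HUES9. Of 23 proliferation genes, 0 were past the fold in H1 and 1 was higher in HUES9, MKI67, at 16.2 and 65.0 FPKM against 63.6 and 41.5 in H1. TOP2A stayed between 91.9 and 135 FPKM. Of 16 p53 targets, 0 were past the fold in H1 and CDKN1A, a cell cycle inhibitor, was higher in HUES9, at 4.02 and 13.7 FPKM. At equal totals 4 of the 16 were higher in HUES9. Of 22 imprinted genes, 1 was lower in H1 (DLK1) and 3 were higher in HUES9 (MAGEL2, CDKN1C and MKRN3). Glycolytic and hypoxia genes had 1 of 19 higher and 1 lower in H1 and 4 higher in HUES9, where the glucose transporter SLC2A1 was at 163 and 443 FPKM.

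Genes of chromosome 20 were higher as a group in H1 at passage 25. Among genes with a mean of at least 5 FPKM, 206 of 233 on chromosome 20 were higher at passage 25 in H1, with a median change of 0.40 and quartiles of 0.22 and 0.59. On the other chromosomes 58.3% of 7512 genes were higher, with a median of 0.06, and the chromosome medians ran from -0.01 to 0.14. In HUES9 the chromosome 20 median was -0.01. When neighbouring genes were taken in windows of 25, all 9 windows of chromosome 20 had medians of 0.21 to 0.49 in H1, while 21 of 290 windows elsewhere reached the lowest of these and the highest elsewhere was 0.42. Measured against the median of all libraries, the chromosome 20 genes of H1 at passage 25 were at 0.28. Those of the other 14 libraries lay between -0.07 and 0.08. Other chromosomes also deviated in some libraries, though by less. Chromosome 22 was at -0.22 in HUES9 at passage 8, and X was at 0.20 and 0.21 in HUES9 muscle at days 40 and 50. Abundant examples were PCNA, the sliding clamp of DNA replication, at 149 and 285 FPKM in H1, NOP56, a nucleolar protein, at 137 and 246, SNRPB, a spliceosome protein, at 251 and 407, and PSMA7, a proteasome subunit, at 149 and 246. In HUES9 all 4 were lower at passage 25, PCNA at 382 and 221. The excess over other chromosomes was 0.31 to 0.35 under every scaling and filter tried. Only RNA was measured here, and the cause of the shift was not tested. In HUES9 the chromosome medians ran from -0.25 for X to 0.25 for chromosome 22.

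**Figure D5:**
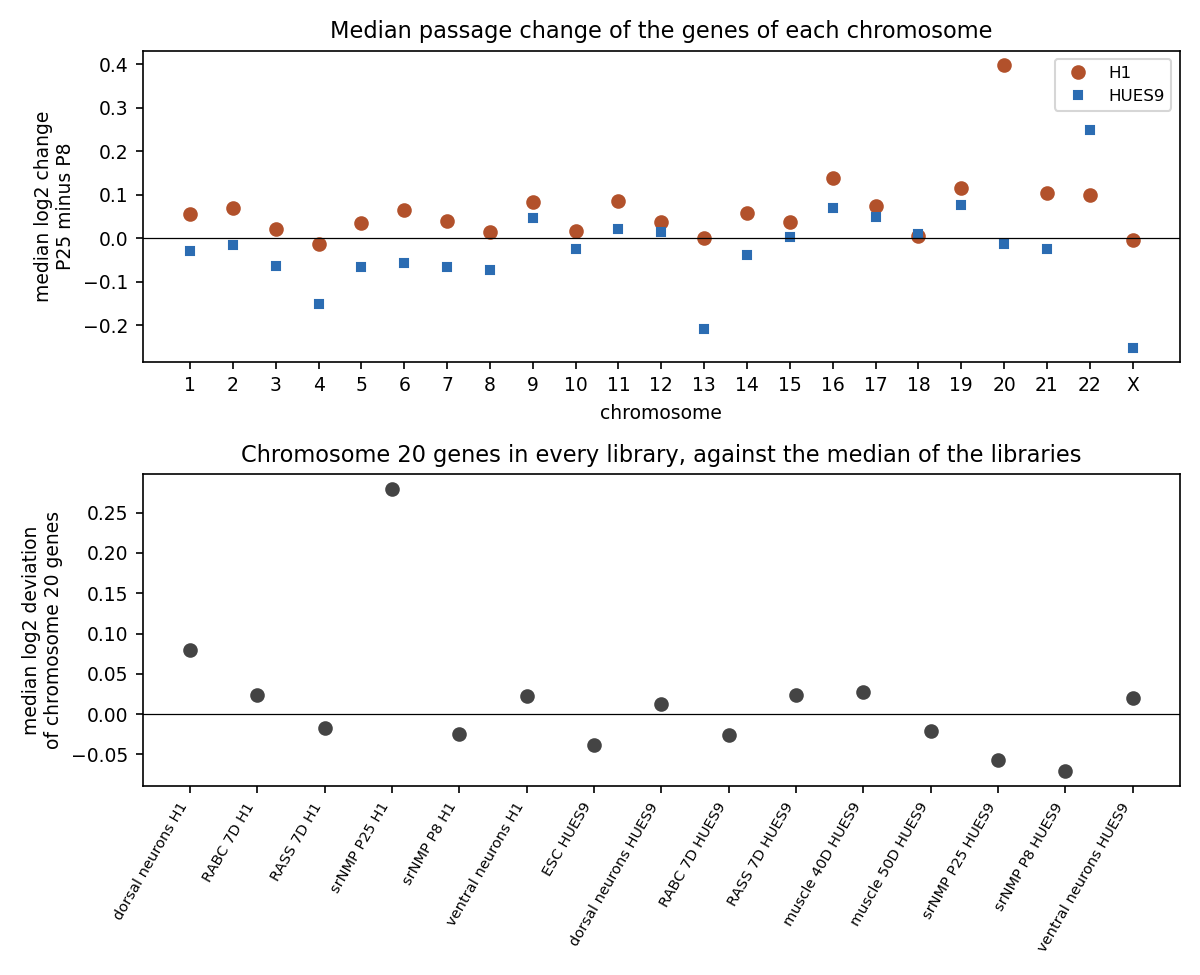
Upper panel, median change in log2(FPKM + 1), passage 25 minus passage 8, of the genes of each chromosome with a mean of at least 5 FPKM, H1 as circles and HUES9 as squares. Lower panel, median deviation of the chromosome 20 genes of each of the 15 libraries from the median over libraries. Chromosome 20 stands at 0.40 in H1 against -0.01 to 0.14 for the others, and the H1 library at passage 25 stands at 0.28 against -0.07 to 0.08.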

How the data were processed

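Messenger RNA was sequenced from 15 cultures in 9 groups, and the labels give stranded libraries. The authors deposited 1 table of FPKM values for 17999 gene symbols. The build was hg18 and the tools were HISAT2, Cufflinks, HTSeq and Trimmomatic, per the submitters' processing notes, and their versions and roles are not given in the sources used here. 1 column of values could be tied to no sample and stayed out. Some genes are not reported here. Since FPKM carry no read counts, depth was judged only relative to the other libraries. Values were taken as listed and transformed as log2(FPKM + 1), which understates the change of low genes, and 14129 genes with at least 1 FPKM in 1 of the 15 libraries were tested.

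Libraries were paired by the cell line that the labels name. The deviations of the passage 8 and passage 25 groups from their means correlated at 0.069 over genes, the lowest of 10 pairs of groups without RASS, which reached 0.377, and pairs with RASS at -0.53 to -0.17. limma 3.58.1 (R 4.3.3) fitted 1 mean per group with a cell line term and a variance trend, with 5 residual degrees of freedom. The test of the line difference left 3. Tests were two-sided and adjusted by Benjamini and Hochberg over all genes tested, at a threshold of 0.05. Nothing says that the libraries of a group are more than 1 culture per line, so p-values measure the spread between these libraries.

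The genes named are the given markers, in each direction class up to 15 genes with the largest smaller change of the 2 lines and at least 5 FPKM in 1 srNMP library, up to 6 per direction with a change under 0.25 in the other line, the 10 with the smallest p of each test, and list members with the largest changes. Further list members, the 4 abundant genes of chromosome 20 and single values were chosen after their values were seen. The members and the 39 gene lists were chosen with earlier results of these data known. Chromosomes came from RefSeq (GRCh38.p14), used only for which genes share a chromosome and neighbour each other, and covered 7745 of 7750 genes. Transcript length and GC content came from the longest GENCODE transcript and covered 97.9% of genes tested. Python 3.11.15, pandas 2.3.3 and matplotlib 3.10.9 were used.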

Additional observations from a re-analysis of the deposited data

Results flagged for a closer look

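In limma, the difference between the lines' passage changes (H1 minus HUES9, log2 scale) had an adjusted p under 0.05 for 8 genes with at least 5 FPKM in 1 srNMP library, each side of it resting on 1 library per passage: RNASE1 (5.56), ASCL2 (4.50), URAD (5.72), CD36 (3.41), PRSS56 (4.56), L1TD1 (4.75), CDX2 (4.44) and TARP (3.22). ASCL2, URAD, L1TD1 and TARP were past the 2-fold threshold in opposite directions, RNASE1 and CDX2 were past it in H1 alone, and PRSS56 and CD36 in HUES9 alone and downward. The differences are not established, since 0 genes were called without any 1 of the 8 libraries that gave the spread, several of these genes being near 0 there. Each omission also left 2 residual degrees of freedom in place of 3, so a loss of power cannot be told apart from a failure to hold. Leaving out 1 library took its partner out of the spread too, so the omissions within a pair are near repeats and not separate checks. None of the 8 stayed under an adjusted p of 0.05 in every alternative. RNASE1 stayed under it in 9 of 19, ASCL2 in 8, URAD in 7, L1TD1 in 6, PRSS56 in 5, CD36 in 4, CDX2 in 3, and TARP in 3 of 17. The alternatives include the library omissions, so these counts mix a loss of power with dependence on scaling and filter.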

How the results depend on the processing

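With FPKM alone and 1 library per line and passage, the count of genes past the fold has no replicate check, and leaving out a library removes a pair. The passage test (replicate block on the cell line) called 0 genes, and also 0 under every scaling, filter and pseudocount, without the block (266 genes at an unadjusted p under 0.05 against 255), without the variance trend and with only the 4 srNMP libraries, where 1 residual degree of freedom was left. Leaving out 1 srNMP library gave 1 to 5 called genes. The line difference had 9 calls: 0 with a pseudocount of 0.1, 96 with no filter, 4 with a filter on the srNMP libraries, 2 at equal totals, 18 with quantile normalization, 5 with GC correction, 5 with length correction, 1 with an interaction term and 1 line term, 4 without the trend, 0 to 0 when leaving out 1 of the 8 other libraries, 0 without both RASS libraries and 30 with their lines exchanged. The GC and length corrections, both settings of the RASS libraries and the alternatives for chromosome medians were chosen after seeing the data. The counts past the fold followed the threshold. In the order both higher, both lower, H1 higher with HUES9 lower and the reverse, they were 71, 36, 207 and 339 at 1.5-fold, 1, 0, 5 and 4 at 4-fold, and 104, 41, 118 and 253 with a pseudocount of 0.1, where 371 of 516 genes (71.9%) were opposite. At equal totals 5 genes were lower in both and 19 higher in H1 and lower in HUES9. Higher and lower in H1, whatever the change in HUES9, were 687 and 613 at 1.5-fold, 34 and 18 at 4-fold and 581 and 504 with a pseudocount of 0.1. In HUES9 the counts were 2528 and 1443 at 1.5-fold, 101 and 24 at 4-fold and 2034 and 619 with a pseudocount of 0.1, while equal totals gave 1515 higher and 109 lower, and the higher count was 595 with quantile normalization and 551 with length correction. The cause of these differences was not tested. Pearson's r between the lines' changes was -0.44 to -0.29 over the scalings and corrections. List counts that moved by over 1.5 times stand beside their lists for dorsal progenitor, neuromesodermal, HOX, WNT, BMP, retinoic acid and p53 genes, and the balance of WNT targets in HUES9 turned with the scaling. Counts in the FGF, hedgehog, paraxial mesoderm, imprinted and proliferation lists moved by at most 2 genes under the scalings and corrections. The excess of chromosome 20 in H1 was 0.31 to 0.35.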
